A study of Drosophila melanogaster with 4 samples.

Results

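Rabbit-only HDAC3 promoter peaks were the peaks that a rabbit HDAC3 antibody gave at gene starts in early Drosophila embryos and that a rat HDAC3 antibody did not give at the same place. They were chosen by measured values: a member is a peak of the rabbit list that lay on a chromosome arm, overlapped no peak of the rat list of the same round of experiments by even 1 bp, and had its edge within 500 bp of an annotated transcription start site (TSS) of a protein-coding gene. This held for 641 of the 3645 peaks of the rabbit list, out of 11147 peaks in all 4 lists of the series. The number depends on the rat list and the limits: it was 1109 when a rat peak had to cover 50% of both peaks, 1073 with the rat list cut to the size of the rabbit list, 119 at a −log10 q of 3 or more, and 1806 when the second-round w1118 list stood in for the first-round rat list. The members made up 64.0% of the 1001 rabbit peaks on the arms without a rat peak and 27.9% (95% exact binomial interval, 26.0 to 29.7%) of the 2301 rabbit peaks at promoters. They were set beside the other 1660 rabbit promoter peaks, which overlapped a rat peak and are called peaks of both antibodies, and beside 1139 rat-only promoter peaks.

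The series mapped HDAC3 by CUT&Tag in nuclei of whole embryos collected 2 to 4 h after egg laying, an assay in which the antibody directs a transposase to cut and tag the DNA around the bound protein. The first round used embryos of w1118, a white-eyed laboratory strain, with the rabbit antibody in 1 library and the rat antibody in another. The second round used the rat antibody in HDAC3 shRNA embryos (genotype tub-GAL4/shRNA HDAC3) and in w1118 embryos, with 1 library of each. In the HDAC3 shRNA embryos a maternal tubulin GAL4 driver expresses a hairpin RNA against HDAC3, and the w1118 embryos are not a control for that driver. As the rabbit antibody was used in 1 library, antibody and library cannot be told apart, there was no spread between replicates to compare with, and no test between the groups was made. The lists held 3645 (rabbit), 6258 (rat, first round), 102 (HDAC3 shRNA) and 1142 (w1118, second round) peaks, and the lowest −log10 q was between 1.60 and 1.61 in each, so weaker signal is not listed and a missing peak is not missing signal. Read numbers are not in the lists and the depth is unknown. The intervals below allow for counting error over the peaks of a list and not for variation between embryos or libraries, since a peak is no replicate.

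HDAC3 is a histone deacetylase that works in complexes with the corepressor SMRTER, removes acetyl groups from histones and is known mostly as a repressor of transcription. The promoters of widely expressed Drosophila genes often lack a TATA box and carry other core elements instead. Among these are the DNA replication-related element (DRE), bound by Dref and in part by the insulator protein BEAF-32, and motif 1, bound by M1BP, whereas promoters of genes used in patterning the embryo more often carry sites for Zelda and GAGA factor.

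Sequences are shown for the 3 strongest rabbit-only promoters outside the right arm of chromosome 2 that held a DRE and the 3 strongest that held the core of the M1BP motif between 250 bases before and 50 bases after the TSS. These elements stood in 33.4% of such promoter windows, as described further on. The sequences run 5′ to 3′ on the strand of the gene and were read from the RefSeq copy of assembly release 6 (dm6). Capitals mark the motif, which is TATCGATA for the DRE and GGTCACAC for the M1BP core, or its reverse complement.
CG3939: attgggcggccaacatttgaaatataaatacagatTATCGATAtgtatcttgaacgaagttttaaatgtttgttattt
CG17597: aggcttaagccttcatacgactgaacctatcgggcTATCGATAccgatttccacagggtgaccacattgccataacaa
CG10333: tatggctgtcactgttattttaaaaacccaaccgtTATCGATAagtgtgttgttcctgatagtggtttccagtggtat
dlg1: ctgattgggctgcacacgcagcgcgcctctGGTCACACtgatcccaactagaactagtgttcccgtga
Dyrk3: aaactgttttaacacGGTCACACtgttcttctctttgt
Nse1: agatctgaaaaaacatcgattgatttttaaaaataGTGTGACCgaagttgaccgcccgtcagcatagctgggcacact
The DRE began 32 bases before the TSS of CG3939 (chrX:3174951-3175028, plus strand), 50 bases before that of CG17597 (chr2L:18831161-18831238, minus strand) and 33 bases before that of CG10333 (chr2L:18606764-18606841, plus strand). The M1BP core began 9 bases before the TSS of dlg1 (chrX:11369626-11369693, plus strand) and 5 bases after that of Dyrk3 (chr4:1230686-1230723, minus strand). In Nse1 (chr2L:6677618-6677695, minus strand) it lay on the opposite strand, 35 bases before the TSS. The fold enrichments of these peaks were 4.81 for CG3939, 4.39 for CG17597, 4.37 for CG10333, 6.30 for dlg1, 5.57 for Dyrk3 and 5.09 for Nse1. The motif lay inside the peak in each of them except Nse1, whose peak began 1 bp downstream of the TSS. A match is a stretch of letters and not a measured binding site.

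At the median, rabbit-only promoter peaks were lower and narrower than the rabbit peaks of both antibodies. Fold enrichment, the signal of a peak over its local background as called by MACS2, was 2.66 at the lowest, 3.64 at the median and 9.42 at the highest member. It was 2.92, 4.06 and 11.44 in peaks of both antibodies, and the median of rat-only promoter peaks, in the rat list, was 3.57. The median −log10 q was 2.20 in members, 2.95 in peaks of both antibodies and 2.58 in rat-only peaks. Of the members, 474 (73.9%) had a fold enrichment under 4 and 33 had 5 or more. The median width was 328 bp (186 to 1935 bp) in members, 518 bp in peaks of both antibodies and 360 bp in rat-only peaks. As the members were selected on the calls of the same libraries, these differences are a description.

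The strongest member lay at CG17646, which encodes a transporter of the ABC family (FBgn0264494, chr2L:1737026-1737520). Its fold enrichment was 9.42 and its −log10 q 18.84. It covered a TSS at base 1737467 and ranked 5th among all 2301 rabbit promoter peaks, with the nearest first-round rat peak 6952 bp away. The next was at echinus (ec, chrX:3811336-3811682, FBgn0000542), a gene needed for the sorting and death of cells in the eye, with a fold enrichment of 7.84, and it ended 16 bp upstream of the TSS. Crtc (chr3L:17668932-17669349, FBgn0036746), a coactivator of the CREB transcription factor, followed at 7.29. Of the 12 strongest members, 8 covered a TSS, 2 lay upstream and 2 downstream, and the nearest rat peak was between 547 and 81083 bp away.

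The other genes of the 12 strongest members had varied roles. At 6.73, the peak of straw (stw), the laccase of cuticle tanning, lay 359 bp downstream of a TSS in an intron. Lava lamp (lva, 6.57), a Golgi protein needed when the embryo forms its first cells, carried a peak over its TSS. Parcas (pcs, 6.50) was the one closest to a rat peak, at 547 bp. Also in this set were fritz (frtz, 6.45), which acts in planar cell polarity, dlg1 (6.30), a scaffold of septate junctions, and Eps-15 (5.92), an endocytic adaptor. The remaining 3 were CG10512 with Targ1 and Targ2 at 1 peak (6.12), CG6574 (6.04) and CG8086 (5.96). Among the 12, 3 were on the X chromosome and 3 peaks held a DRE or M1BP core.

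The rule places members near a TSS, and within that limit most of them sat on it. The peak covered a TSS in 429 members (66.9%, 63.1 to 70.6%), in 1247 peaks of both antibodies (75.1%, 73.0 to 77.2%) and in 652 rat-only peaks (57.2%). The whole peak lay downstream of the TSS in 140 members (21.8%, 18.7 to 25.2%), against 11.4% (9.95 to 13.1%) of peaks of both antibodies and 20.1% (17.8 to 22.6%) of rat-only peaks. It lay upstream in 72 members (11.2%), against 13.4% of peaks of both antibodies and 22.7% of rat-only peaks. The median widths of these groups, given above, also differed, and their part in the coverage was not tested.

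**Figure D1:**
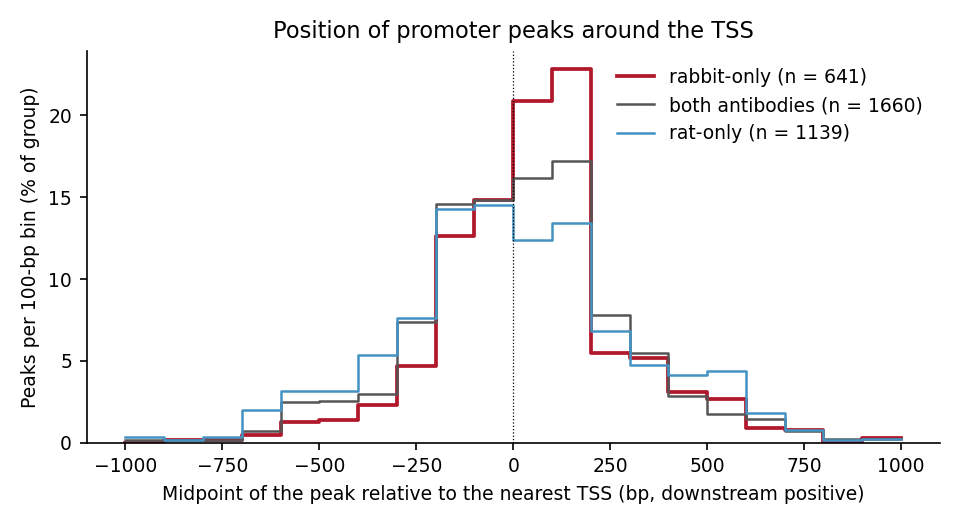
Distance from the midpoint of a peak to the nearest TSS (bp, downstream positive) for rabbit-only promoter peaks (n = 641), peaks of both antibodies (n = 1660) and rat-only promoter peaks (n = 1139), as the share of each group per 100-bp bin. The rabbit-only curve is highest just downstream of the TSS, with its median at 64 bp, against 26 bp for both antibodies and −4 bp for rat-only peaks.

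The midpoints of rabbit-only peaks were shifted to the transcribed side of the TSS. The lists give no summits, so the midpoint stands in for the centre of the signal. It lay downstream in 395 members (61.6%, 57.7 to 65.4%), 53.6% of peaks of both antibodies and 48.9% of rat-only peaks. It was within 100 bp of the TSS in 232 members (36.2%) and within 250 bp in 495 (77.2%). These shares were 31.4% and 72.5% for peaks of both antibodies. The midpoint fell in a 5′ UTR in 247 members (38.5%), between genes in 144 (22.5%), in coding sequence in 126 (19.7%) and in an intron in 99 (15.4%). Coding sequence held 10.7% of the midpoints of both antibodies and 16.9% of rat-only midpoints. Introns held 25.1% for both antibodies and 29.1% for rat-only peaks.

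Closely spaced gene starts were common among members. The 641 peaks lay within 500 bp of TSSs of 922 genes, and 266 peaks (41.5%, 37.7 to 45.4%) had TSSs of at least 2 genes in reach. This was so for 39.2% of peaks of both antibodies and 17.9% of rat-only peaks. TSSs on both strands were in reach of 252 members (39.3%), against 37.1% for both antibodies and 15.7% for rat-only peaks. For such peaks the list does not say which gene the signal belongs to. The genes of members had a median length of 2784 bp, against 4341 bp for genes with peaks of both antibodies, 4444 bp for genes with rat-only peaks and 2166 bp for all 13945 protein-coding genes of the arms.

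Of the 922 genes of members, 741 (80.4%) had no first-round rat peak in the gene body or within 500 bp of it, against 67.3% of all protein-coding genes of the arms. The rule, which bars an overlapping rat peak, bears on this share. A rat peak stood within 500 bp of some TSS of 67 genes (7.27%), and 36 genes (3.90%) also had a peak of both antibodies at a TSS. The median distance of a member to the nearest rat peak was 5876 bp, 59 members (9.20%) were within 1000 bp of one and 9 within 200 bp. The closest was at Vps25, a subunit of the ESCRT-II sorting complex, with a gap of 4 bp and a fold enrichment of 3.97, and the next at the glycolytic enzyme gene Eno, with 29 bp and 3.32. At the other limit of the rule, the members farthest from a TSS were those of CG33941 (477 bp, fold enrichment 4.18) and CG12643 (474 bp, 3.61). Just outside it were CG30036 (517 bp, 3.51) and AcCoAS (524 bp, 3.28).

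The second-round w1118 list, made with the rat antibody in another library and not used to choose the members, held few of them. It overlapped 10 of the 641 members (1.56%, 0.751 to 2.85%), against 21.5% of all rabbit promoter peaks. It overlapped 485 of the 1660 peaks of both antibodies (29.2%, 27.0 to 31.5%) and 73 of the 1139 rat-only promoter peaks (6.41%, 5.06 to 7.99%). The second-round list was made with the antibody whose first-round peaks members lack by rule. The share was 10.9% of the 1109 rabbit promoter peaks that had no rat peak covering 50% of both, and 3.91% of the 1073 left when the rat list was cut to the size of the rabbit list. The HDAC3 shRNA list held 0 of the 641 members, which allows a share of up to 0.574%, against 0.261% of all rabbit promoter peaks and 6 of the 1660 peaks of both antibodies (0.361%). With 18 of its 102 peaks on the arms, that list could hold few members of any group.

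The low share held at each level of the rabbit signal. The second-round w1118 list overlapped 4 of 202 members with a rabbit fold enrichment under 3.5 (1.98%), 2 of 272 between 3.5 and 4 (0.735%), 2 of 101 between 4 and 4.5 (1.98%), 0 of 33 between 4.5 and 5, and 2 of 33 at 5 or more (6.06%, 0.743 to 20.2%). In peaks of both antibodies the share was 23.8%, 23.5%, 24.2%, 31.2% and 46.6% over the same bins, so the share of members was below it in all 5. The rule bars first-round peaks of the same rat antibody and so bears on this difference. The bins do not match the groups for width, and its part was not tested.

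**Figure D2:**
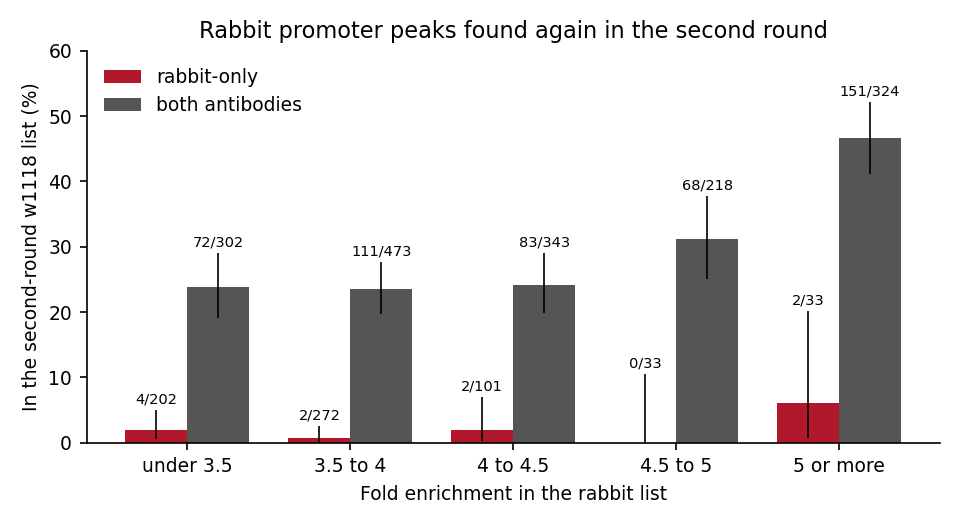
Share of rabbit promoter peaks that overlap a second-round w1118 peak (%), by fold enrichment in the rabbit list, for rabbit-only peaks and peaks of both antibodies. Bars are shares with 95% exact intervals and the numbers are peaks found over peaks in the bin. Rabbit-only bars range between 0 and 6.06%, those of both antibodies between 23.5 and 46.6%.

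The 10 members found again had second-round fold enrichments between 3.36 and 4.81 (median 3.57), against a median of 3.73 in the whole second-round w1118 list, and 9 of them had a second-round −log10 q under 3. Crtc was the strongest in both rounds, at a second-round fold enrichment of 4.81 (−log10 q 3.63) and with 294 bp of overlap. The peak at CG7985 and Ssdp, a cofactor of LIM transcription factor complexes, had 5.26 in the rabbit list and 3.82 in the second round (chr3R:18199840-18200117). Its second-round peak was 2076 bp wide, against 278 bp in the rabbit list, and overlapped it by 260 bp. A first-round rat peak stood 912 bp away. BEAF-32, which binds insulators and promoters, had 3.37 over its own TSS in the rabbit list (chr2R:14770716-14771751) and 3.72 in the second round, and a first-round rat peak stood 95 bp away.

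The other 7 had lower second-round values. Pask, a PAS domain kinase, and Phm, an enzyme of neuropeptide amidation, shared a peak with 3.31 in the rabbit list and 3.63 in the second round that overlapped by 49 bp. EMC10, of the ER membrane complex, had 3.47 (rabbit) and 3.61 (second round). Snx17, a sorting nexin, had 4.00 (rabbit) and 3.53 (second round), and its peak (chr2L:10206444-10206782) lay 179 bp downstream of the TSS in coding sequence. The peak at CG31548 and CG12170 had 4.02 (rabbit) and 3.44 (second round). RpS9, a ribosomal protein, had 3.66 (rabbit) and 3.42 (second round), and its peak held the M1BP core. NAT1, a translation factor related to eIF4G, had 3.94 (rabbit) and 3.38 (second round), with the second-round peak covering all 938 bp of the rabbit peak. Not1, the scaffold of the CCR4-NOT deadenylase, shared a peak with Nt5c at 3.49 (rabbit) and 3.36 (second round). Of the 10, 8 covered a TSS and 4 had TSSs of 2 genes in reach. By arm, 1 was on 2L, 4 on 2R, 3 on 3L and 2 on 3R, and none of the 18 on chromosome 4 or the 150 on X was among them. As the share over all members was 1.56%, few of those 150 or 18 could be looked for in the list. These counts therefore do not set X or chromosome 4 apart. On X the list held 92 of 288 peaks of both antibodies (31.9%), near the 29.2% on all arms.

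The X chromosome and the small chromosome 4 held larger shares of members than of the other groups. On X there were 150 members (23.4%, 20.2 to 26.9%), against 17.3% (15.6 to 19.3%) of peaks of both antibodies, 13.3% of rat-only peaks and 15.7% of protein-coding genes. On chromosome 4 there were 18 (2.81%, 1.67 to 4.40%), against 0.904% of peaks of both antibodies, 0.351% of rat-only peaks and 0.574% of genes. Members were 34.2% (29.8 to 38.9%) of the rabbit promoter peaks on X, 54.5% (36.4 to 71.9%) of the 33 on chromosome 4 and between 24.2 and 27.7% on each of the other arms. A member peak was within reach of 9.20% of the genes of X, 22.5% of the 80 genes of chromosome 4 and 6.61% of all genes. Male embryos carry 1 X chromosome, and the sex ratio of the pooled embryos is not given in the labels. Of all 2301 rabbit promoter peaks, 438 were on X. The share of members on X was 19.5% when a rat peak had to cover 50% of both peaks. It was 19.2% when the second-round w1118 list stood in for the first-round rat list. Both values lie below the interval of the main share, so the excess on X depends on how the rat list was used. The median fold enrichment of members was between 3.60 and 3.73 on every arm.

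**Figure D3:**
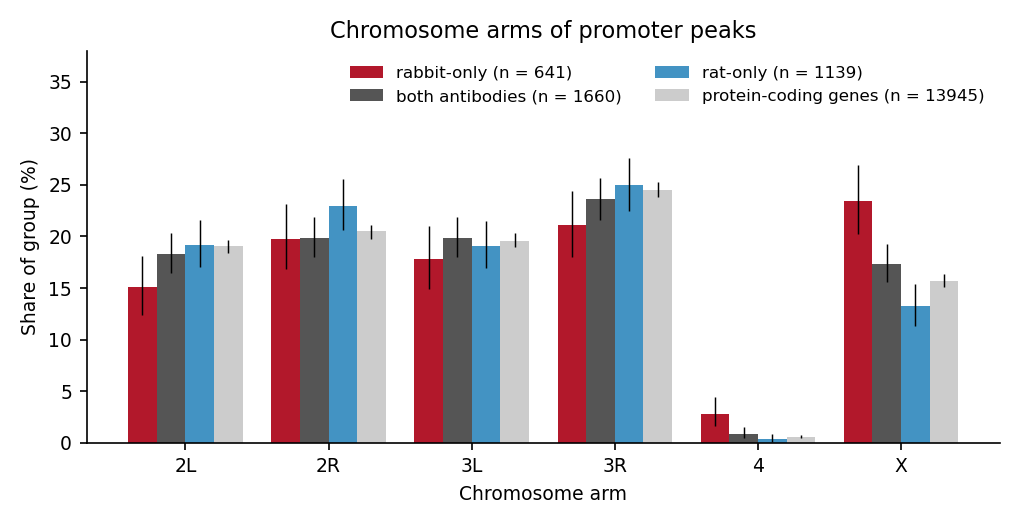
Chromosome arms of rabbit-only promoter peaks (n = 641), peaks of both antibodies (n = 1660), rat-only promoter peaks (n = 1139) and all protein-coding genes (n = 13945), as shares of each group (%) with 95% exact intervals. The rabbit-only bars stand above the others on X (23.4%) and on chromosome 4 (2.81%).

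On X, the strongest members after ec, lva and dlg1 were mal, the enzyme that activates molybdenum cofactor enzymes (fold enrichment 5.10), p24-1, a cargo adaptor of early secretion (5.09), sgg, the GSK3 kinase of Wingless signalling (4.86), and Pat1 (4.86). On chromosome 4 the peak over the divergent starts of Dyrk3, a protein kinase gene, and Cadps led at 5.57 (chr4:1230478-1230962). MED26, a Mediator subunit, had 2 member peaks at 5.29 and 3.73. The list went on with the TGF-beta ligand gene myo (4.59), CaMKII (4.40) and CG33941 (4.18), legless (lgs, 4.16), a coactivator of Wingless signalling, and unc-13 (4.00), which primes synaptic vesicles. The semaphorin receptor genes PlexB (3.54) and PlexA (3.33), RpS3A (3.44) and ND-49 (3.30) were among the weaker ones.

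The core elements of housekeeping promoters were common in the windows of members. In the window between 250 bases before and 50 after the nearest TSS, searched on both strands, the DRE stood in 116 members (18.1%, 15.2 to 21.3%), against 11.1% of peaks of both antibodies, 5.88% of rat-only peaks and 7.98% of all 19253 protein-coding TSSs. The M1BP core stood in 109 members (17.0%, 14.2 to 20.1%), against 14.2% of peaks of both antibodies, 6.94% of rat-only peaks and 6.73% of all TSSs. At least 1 of them stood in 214 members (33.4%, 29.7 to 37.2%), 23.7% of peaks of both antibodies, 11.9% of rat-only peaks and 13.9% of all TSSs, and both stood in 11 members. Within the peak itself the share with either was 23.4% in members and 23.3% in peaks of both antibodies, which are wider, and 8.52% in rat-only peaks.

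The GAGA factor and Zelda motifs were scarcer in the windows of members than in those of the other peak groups. The GAGA factor motif (GAGAGAG) stood in the window of 18 members (2.81%, 1.67 to 4.40%), against 15.6% of peaks of both antibodies, 16.9% of rat-only peaks and 7.65% of all TSSs. The Zelda motif (CAGGTAG) stood in 6 members (0.936%, 0.344 to 2.03%), against 3.67% of peaks of both antibodies and 5.53% of rat-only peaks. All TSSs had it in 1.69%, which lies within the interval of the members. The E-box CAGCTG stood in 20.1% of members, 20.2% of peaks of both antibodies, 19.0% of rat-only peaks and 17.9% of all TSSs. The letters TATAAA, searched over the whole window and not at the position of a TATA box, stood in 44.5% of members, 33.5% of peaks of both antibodies, 35.3% of rat-only peaks and 42.3% of all TSSs. The median GC content of the peaks was 45.0% in members, 46.5% in peaks of both antibodies and 48.5% in rat-only peaks.

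**Figure D4:**
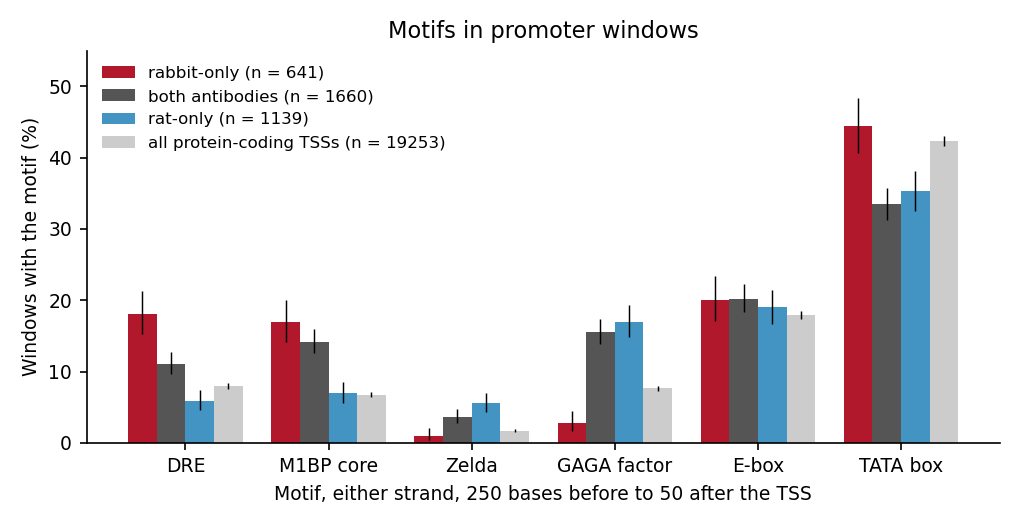
Share of promoter windows (250 bases before to 50 after the TSS) that hold each of 6 motifs on either strand (%), with 95% exact intervals, for rabbit-only promoter peaks, peaks of both antibodies, rat-only promoter peaks and all protein-coding TSSs. The DRE is in 18.1% of rabbit-only windows and 7.98% of all windows, and the GAGA factor motif in 2.81% and 7.65%.

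Members were also split by whether the peak itself held a DRE or M1BP core. These are core promoter elements that lie near a TSS, and a wider peak holds more sequence. The split itself therefore bears on position and width, and the values below are a description. The 150 with such a motif had a median width of 486 bp, and 137 of them (91.3%) covered a TSS. The 491 without had a median width of 304 bp, and 292 (59.5%) covered a TSS. TSSs on both strands were in reach of 78 of those with a motif and 174 of those without. The median fold enrichment was 3.66 with a motif and 3.64 without. The part of width in the motif split was not tested. The second-round w1118 list held 1 of the peaks with a motif and 9 of those without.

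Member peaks were counted in 18 lists of genes by function. The lists are name patterns drawn up with earlier results of these data known, and no enrichment was tested. A peak with TSSs of several genes in reach was counted for each of them. Below, such neighbours are named for some peaks only. In 15 of 18 gene lists a larger share of genes than the 6.61% of all protein-coding genes had a member peak, with the proteasome list (6.25%) below it and 2 lists at 0. Of the 15, translation factors (6.67%), splicing (7.69%) and the deacetylases and corepressors (7.69%) were near that background. The share was above that of peaks of both antibodies in 3 lists, although that group covers 16.5% of all genes. These were the cytosolic ribosomal proteins (18 of 93 genes, 19.4%, against 17 genes, 18.3%), the respiratory chain (17 of 91, 18.7%, against 13, 14.3%) and DNA repair (10 of 53, 18.9%, against 7, 13.2%). The counts set side by side are small and lie close together. None of 79 embryo patterning genes had a member peak, whereas 42 (53.2%) had a peak of both antibodies and 32 (40.5%) a rat-only peak. None of 8 dosage compensation genes had one, against 5 with a peak of both antibodies and 2 with a rat-only peak. Most genes of both lists thus had a promoter peak that overlapped a rat peak, and such peaks are barred by the rule. At the 6.61% of all genes, a list of 8 genes would also hold few members. The counts of 0 therefore do not set these lists apart.

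**Figure D5:**
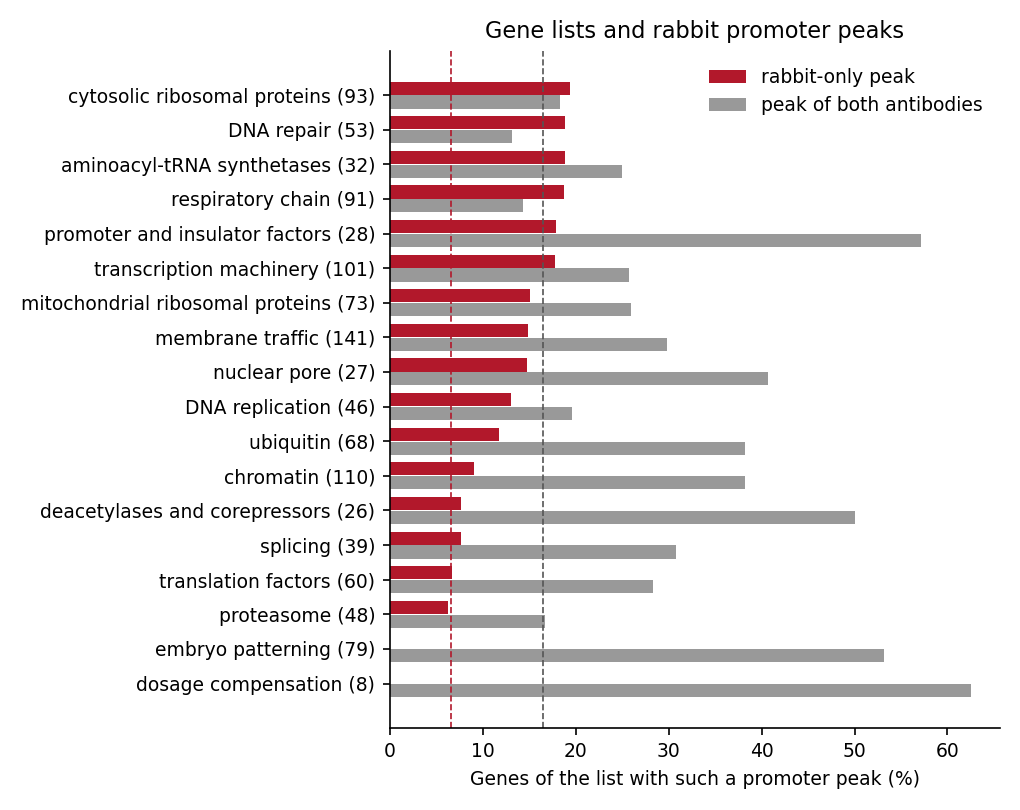
Share of the genes of 18 lists with a rabbit-only promoter peak and with a peak of both antibodies (%), with the number of genes in parentheses. Dashed lines are the shares of all protein-coding genes, 6.61% for rabbit-only peaks and 16.5% for peaks of both antibodies. Embryo patterning and dosage compensation stand at 0 for rabbit-only peaks. The rule, which bars peaks that overlap a rat peak, bears on both.

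Among ribosomal protein genes the strongest member peaks were at RpL21 (fold enrichment 5.06), RpL13 (4.24) and RpL9 (4.12), and 8 of the 18 covered the gene's own TSS. Mitochondrial ribosomal proteins had 11 of 73 genes (15.1%), led by mRpL48 (4.67), mRpS26 (4.12) and mRpL27 (4.03). A peak of both antibodies stood at 26.0% of them. Over all genes these shares were 6.61% for member peaks and 16.5% for peaks of both antibodies. The mRpL48 peak is also the CG17660 peak and lies 62 bp upstream of the mRpL48 TSS. In the respiratory chain ATPsynG (4.18), a subunit of ATP synthase, ox (4.15), of complex III, and ND-13B (4.09), of complex I, came first, and 9 of the 17 covered their own TSS. The ATPsynG peak is also the SCAR peak, and the ox peak is shared with Dgkepsilon. All 6 aminoacyl-tRNA synthetase genes with a member peak (of 32, 18.8%) had it over their own TSS, with GlnRS (5.02), SerRS-m (4.20) and SerRS (4.03) the strongest. A peak of both antibodies stood at 25.0% of the synthetase genes. Translation factors had 4 of 60 (6.67%), namely eEF1alpha1 (3.57), eIF4EHP (3.49), eIF3i (3.35) and eIF3k, and 28.3% had a peak of both antibodies. The proteasome had Prosbeta3 (4.13), Prosalpha2 (3.77) and Rpn10 (3.40), the first and the last over their TSS. These were 3 of 48 genes (6.25%), and 16.7% had a peak of both antibodies.

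The general transcription machinery had 18 of 101 genes (17.8%) with a member peak, against 6.61% of all genes. A peak of both antibodies stood at 25.7% of its genes, against 16.5% of all genes. Besides MED26 the genes with a member included Tbp (4.35), the TATA-binding protein, with a DRE in its promoter window, and Polr1F (4.06), a subunit of RNA polymerase I. Genes for TBP-associated factors with a member were Taf13 (3.66), Taf8 (3.55), Taf1 (3.39) and Taf7 (3.34), and Taf10 and Taf10b shared a peak (3.20). The Taf8 peak lay 412 bp downstream of its TSS. DNA replication genes with members (6 of 46) included geminin (4.37), the inhibitor of origin licensing, Orc4 (4.36), of the origin recognition complex, and RfC3 (4.15), of the clamp loader. In the replication list 13.0% of genes had a member peak and 19.6% a peak of both antibodies. DNA repair genes included Rev1 (3.65), a translesion polymerase, and Blm (3.60), a helicase. The name pattern of that list also caught mei-P26, which is not a repair gene. The splicing list had 3 of 39 genes (7.69%), Bx42 (4.08), SmF (3.86) and crn (3.44), and 30.8% of its genes had a peak of both antibodies.

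Membrane traffic had 21 of 141 genes (14.9%) with a member peak, against 6.61% of all genes. They were led by the coatomer subunit betaCOP (4.16), Arfrp1 (4.08) and Rab18 (4.06). A peak of both antibodies stood at 29.8% of the genes of this list, against 16.5% of all genes. The Arfrp1 peak is also the Bx42 peak and lies 434 bp upstream of the Arfrp1 TSS. The Rab18 peak is also the RpL35 peak. The ubiquitin list had 8 of 68 (11.8%), with Usp20-33 (4.63), Roc1a (4.18) and Ubc10 (3.97), and 3 of the 8 covered their own TSS. In that list 38.2% of genes had a peak of both antibodies. The Usp20-33 peak is also the Snrk peak and lies 235 bp upstream of the Usp20-33 TSS. That of Ubc10 lies 256 bp downstream. The nuclear pore had 4 of 27 (14.8%), with Nup93-2 (3.67), Gp210 (3.56) and Ndc1 (3.53), and 40.7% of its genes had a peak of both antibodies.

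The chromatin list had 10 of 110 genes (9.09%) with a member peak, against 6.61% of all genes, and 42 (38.2%) with a peak of both antibodies, against 16.5% of all genes. The strongest were not (4.30), a ubiquitin protease whose TSS lay 362 bp from a peak shared with bora, Ada2a (4.02) and Atac3 (3.79), all of histone acetyltransferase complexes. The Ada2a peak is shared with moi, Tgs1 and Polr2D, and the Atac3 peak with Ptpmeg. Of 26 deacetylase and corepressor genes 2 (7.69%) had a member peak, against 13 with a peak of both antibodies. They were Sirt4 (4.34, chrX:5665917-5666281), a mitochondrial sirtuin whose peak is shared with CG4119, and Bin1 (3.67, chr3R:16186626-16186928), a subunit of the Sin3 corepressor complex whose peak is shared with sra.

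The genes for several factors that bind promoters and insulators carried members themselves, 5 of 28 (17.9%), against 6.61% of all genes. A peak of both antibodies stood at 16 of the 28 (57.1%), against 16.5% of all genes. The Dref peak (4.24, chr2L:9966775-9967225) had its nearest edge 4 bp downstream of the Dref TSS and is the same peak as that of RpL13, on the opposite strand. The CTCF peak (3.70, chr3L:7356774-7356986) lay 61 bp upstream of the TSS, and 57.3% of its bases were repeat-masked. The pita peak (3.46, chr2R:23554128-23554535) lay 177 bp downstream and the Opbp peak (3.22, chr2R:6652931-6653136) 81 bp upstream. BEAF-32, at 3.37, was the one of the 5 whose peak covered the TSS and the one the second-round w1118 list held.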

How the data were processed

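Per the methods and the submitters' processing notes, the authors used Trim Galore for adaptors, Bowtie2 for mapping (dm6), MACS2 for peaks and ChIPseeker for their annotation. Versions, calling options and any control library are not given in the sources used here. They deposited 1 peak list per library in a broad-peak format of 9 columns without summits. The deposited fold enrichment is a ratio of the signal to the local background, and the deposited p-value and q-value are −log10 values. The deposited score is the same −log10 q multiplied by 10 and truncated, and no result rests on it.

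TSSs and gene parts came from Ensembl release 115 (assembly release 6, the coordinates of dm6) and sequence and repeat masking from the RefSeq copy of that assembly. Overlaps of at least 1 bp, positions, motifs and shares with 95% exact (Clopper-Pearson) intervals were obtained in Python (3.11.15) with pandas (2.3.3), scipy (1.17.1) and numpy (2.4.6), and plotted using matplotlib (3.10.9). The functions were tested on simulated data. A peak belonged to its nearest TSS for position and to every gene with a TSS within 500 bp for the gene lists. Peaks off the arms (unplaced sequences, Y, mitochondrial DNA) were left out. No test was made, because there is 1 library per round, genotype and antibody.

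The members, gene lists and alternatives were chosen with earlier results of these data known. The genes named are the 12 strongest members, those in the second-round lists, the 3 strongest of each gene list, every member of the deacetylase and corepressor, promoter and insulator factor and dosage compensation lists, the peaks nearest the limits of the rule and the strongest with a DRE or M1BP core. A gene of the DNA repair list is not reported here by name. Those named on X and chromosome 4, and mei-P26, eIF3k and the Taf genes, were added after their values were seen. The alternatives varied the overlap, the TSS window, the use of the midpoint, the q-value and the size and choice of the rat list.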

Additional observations from a re-analysis of the deposited data

How the results depend on the processing

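Over the alternatives to the main settings, 54 of 73 values stayed within the interval of the main value, or within 1.5 times for the number of members, and 19 moved. The number of members (641) was 1109 when a rat peak had to cover 50% of both peaks, 1073 against a rat list cut to its strongest peaks at the size of the rabbit list, 119 at a −log10 q of 3 or more and 1806 without the first-round rat library, when the second-round rat list took its place. The share in the second-round w1118 list (1.56%) was 10.9% with the 50% rule for the rat list, 3.91% with the rat list of equal size and 0.468% when the second-round overlap had to reach 50%. The share on X (23.4%) was 19.5% with the 50% rule and 19.2% without the first-round rat library. The share covering a TSS (66.9%) was 74.6% in a window of 200 bp, 62.6% in one of 1000 bp, 73.9% at the stricter q, 71.6% with the rat list of equal size and 72.2% without the first-round rat library. The share with TSSs of at least 2 genes (41.5%) was 30.1% and 49.1% in the windows of 200 and 1000 bp, 33.4% by midpoint, 36.1% at the stricter q and 46.8% with the rat list of equal size. Without the peaks masked over more than 50% of their bases there were 640 members, and 67.0% covered a TSS. The cause of these moves was not tested. The share with a DRE or M1BP core (23.4%) ranged between 22.0 and 26.4%, and that in the HDAC3 shRNA list did not move.

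No paired analysis was possible because each list is 1 library and the results come from no test. Members depend on where the rat list was cut, and signal below the calling limit is not in the lists. The rabbit antibody has no repeat library, no library's depth is known, and broad peaks without a summit leave the centre of the signal open to about the width of the peak.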
